A study of Mus musculus with 6 samples.

Results

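T cells limit their own receptor signal with genes that the signal itself induces, and 10 of these negative feedback regulators are described here: Dusp2, Dusp4, Dusp5, Dusp6, Spry1, Spry2, Cblb, Rgs1, Rgs16 and Cd5. They were chosen by name among the 32285 genes counted, and 10 of 10 were found in both count matrices. In the RefSeq annotation of GRCm38.p6 the genes not placed below lie at chr1:144244669-144249104 (Rgs1), chr8:34807610-34819894 (Dusp4), chr10:99263231-99267489 (Dusp6), chr16:52031230-52208047 (Cblb), chr19:10718107-10739026 (Cd5) and chr19:53529145-53541809 (Dusp5). The cells were CD3+ T cells, either CD4+ or CD8+, sorted from gliomas that grew in the brain after implantation of CT2A, a mouse glioma cell line. The hosts were wild-type C57BL/6J mice aged 6 to 8 weeks, and the labels name no drug or gene deletion. Tumours were taken at day 13 (16 mice, in pools of 4) and at day 19 (4 mice), with the stated interest in how T cells change state as the tumour grows. Each day was 1 capture on the 10x 5' system, with gene expression, surface antibody tags and T cell receptor (TCR) sequences read from the same droplets.

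Barcodes were kept if they had a TCR contig, at least 5000 unique molecular identifiers (UMIs, each marking 1 captured RNA molecule), at most 10% mitochondrial UMIs and at most 3 UMIs of the macrophage genes C1qa, Lyz2 and Csf1r together. This left 3775 of 8359 contig barcodes at day 13 and 2159 of 4295 at day 19, with median depths of 7126 and 8792 UMIs. CD8 T cells, with Cd8a or Cd8b1 detected and Cd4 absent, numbered 2646 and 1436. CD4 T cells, with Cd4 detected and both CD8 genes absent, numbered 499 and 377. The remaining 630 and 346 barcodes had both coreceptors or neither and were left out. Cd3e was detected in 99.4% of CD8 T cells at day 13 and in 99.7% at day 19, and 13 barcodes occurred in both days. Each day had 4 TCR contig tables, whose barcodes are called sets here. Within a day, 3.33% to 7.5% (day 13) and 20.9% to 50% (day 19) of the expanded clonotypes of a set recurred in another set, so sets were read as a description and each day as 1 sample. The labels tie neither the sets nor the multiplexing tags to mice, no test was made, and no p-value is given. Levels are UMIs summed over the cells of a group, per 1000000 gene UMIs of that group (CPM). Ratios are log2 ratios of CPM, with a 95% interval that covers counting error only. A ratio of at least 1.5-fold in either direction was the reporting threshold, and it is a size, not a test. The day, the capture and the number of mice per pool cannot be told apart.

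The regulators act at different steps of the pathway. DUSP proteins are dual-specificity phosphatases that remove phosphate from MAP kinases: DUSP2, DUSP4 and DUSP5 are nuclear, while DUSP6 is cytoplasmic and acts on ERK. Sprouty proteins (SPRY1, SPRY2) dampen the RAS to ERK route, and CBL-B is a ubiquitin ligase that sets the threshold for activation without costimulation. RGS1 and RGS16 speed up the shut-off of G protein signals, including those of chemokine receptors, and CD5 is a surface protein whose level tracks the strength of TCR signals during thymic selection. Several of these genes are known as markers of recently stimulated or exhausted T cells.

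The 250 bases before the start site given in a RefSeq promoter table of the build GRCm38.p6 were examined for 8 of the 10 genes. For Cblb and Cd5 that site lies inside the annotated gene, so the Cblb window is within the gene and the Cd5 window overlaps it. The promoters of 4 genes are shown because the main contrasts by state, clone size and day below turn on them. Capitals mark matches on either strand to the motifs searched.
Rgs16: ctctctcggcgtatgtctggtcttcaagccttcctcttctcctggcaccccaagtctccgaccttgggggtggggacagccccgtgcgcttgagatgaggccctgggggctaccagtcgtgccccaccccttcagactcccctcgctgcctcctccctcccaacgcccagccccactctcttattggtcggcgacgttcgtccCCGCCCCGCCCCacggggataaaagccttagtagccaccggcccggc
Spry1: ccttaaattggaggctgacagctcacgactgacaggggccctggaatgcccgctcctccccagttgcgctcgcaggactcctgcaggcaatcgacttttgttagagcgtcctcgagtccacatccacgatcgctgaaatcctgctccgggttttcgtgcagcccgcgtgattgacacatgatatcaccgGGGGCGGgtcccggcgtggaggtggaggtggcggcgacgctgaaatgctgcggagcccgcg
Spry2: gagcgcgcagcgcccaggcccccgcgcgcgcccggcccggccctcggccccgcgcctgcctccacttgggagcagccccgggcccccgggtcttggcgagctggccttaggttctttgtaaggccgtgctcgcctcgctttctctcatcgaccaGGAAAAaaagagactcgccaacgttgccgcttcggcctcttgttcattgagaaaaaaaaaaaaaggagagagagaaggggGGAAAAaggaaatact
Dusp2: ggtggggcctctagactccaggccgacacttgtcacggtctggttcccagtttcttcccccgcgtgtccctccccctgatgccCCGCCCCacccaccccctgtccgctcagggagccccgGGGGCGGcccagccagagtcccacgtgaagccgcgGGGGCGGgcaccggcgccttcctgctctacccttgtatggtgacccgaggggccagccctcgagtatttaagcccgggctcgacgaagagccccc
These windows lie at chr1:153740103-153740352 (plus strand, Rgs16), chr3:37639697-37639946 (plus strand, Spry1), chr14:105896820-105897069 (minus strand, Spry2) and chr2:127335909-127336158 (plus strand, Dusp2). Their GC contents were 66.4%, 62.4%, 62.4% and 70.4%. The GC box (GGGGCGG) was found in 4 of the 8 promoters and in 21.0% of 32851 promoters of the same length. Dusp2 held 3 matches, starting at -167, -130 and -95 from that site, Rgs16 held 2 that overlap each other at -47 and -42, Spry1 held 1 at -61, and Dusp5 held 1. The NFAT core GGAAAA was found in Spry2, at -96 and -16, and in 20.4% of all promoters. No match was found in the 8 windows for the AP-1 motif TGANTCA (6.75% of all promoters), the CRE motif TGACGTCA (1.55%), the EGR motif GCGTGGGCG (0.536%) or the ETS motif CCGGAAG (6.91%). A match is a description of letters and not a bound site.

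Cells were grouped by the presence of at least 1 UMI of a state gene. Pdcd1 encodes PD-1, a receptor induced by antigen. Within Pdcd1+ CD8 T cells, those with Tcf7 and without Havcr2 are called progenitor-like (428 at day 13, 143 at day 19) and those with Havcr2 and without Tcf7 terminal-like (222 and 348), following the usual markers of progenitor and terminal exhaustion. A further 393 and 221 cells had neither marker, and 42 and 12 had both. Pdcd1- CD8 T cells were divided by Klra7, a Ly49 receptor gene, into Klra7+ (348 and 174) and Klra7- cells (1213 and 538). CD4 T cells were divided into Foxp3+ (150 and 125) and Foxp3- cells (349 and 252). Because these groups rest on single UMIs, depth moves with them: the median was 12958 and 12155.5 UMIs in terminal-like cells, 7714 and 11118 in progenitor-like cells, and 6642 and 7333 in Pdcd1- Klra7- cells.

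The 10 regulators followed different patterns across these groups, as the plot of every level by state and day shows. Rgs16 was highest in terminal-like CD8 T cells, Spry2 in Klra7+ CD8 T cells, Dusp2 in Pdcd1- CD8 T cells, and Dusp4, Spry1 and Cd5 in CD4 T cells.

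**Figure D1:**
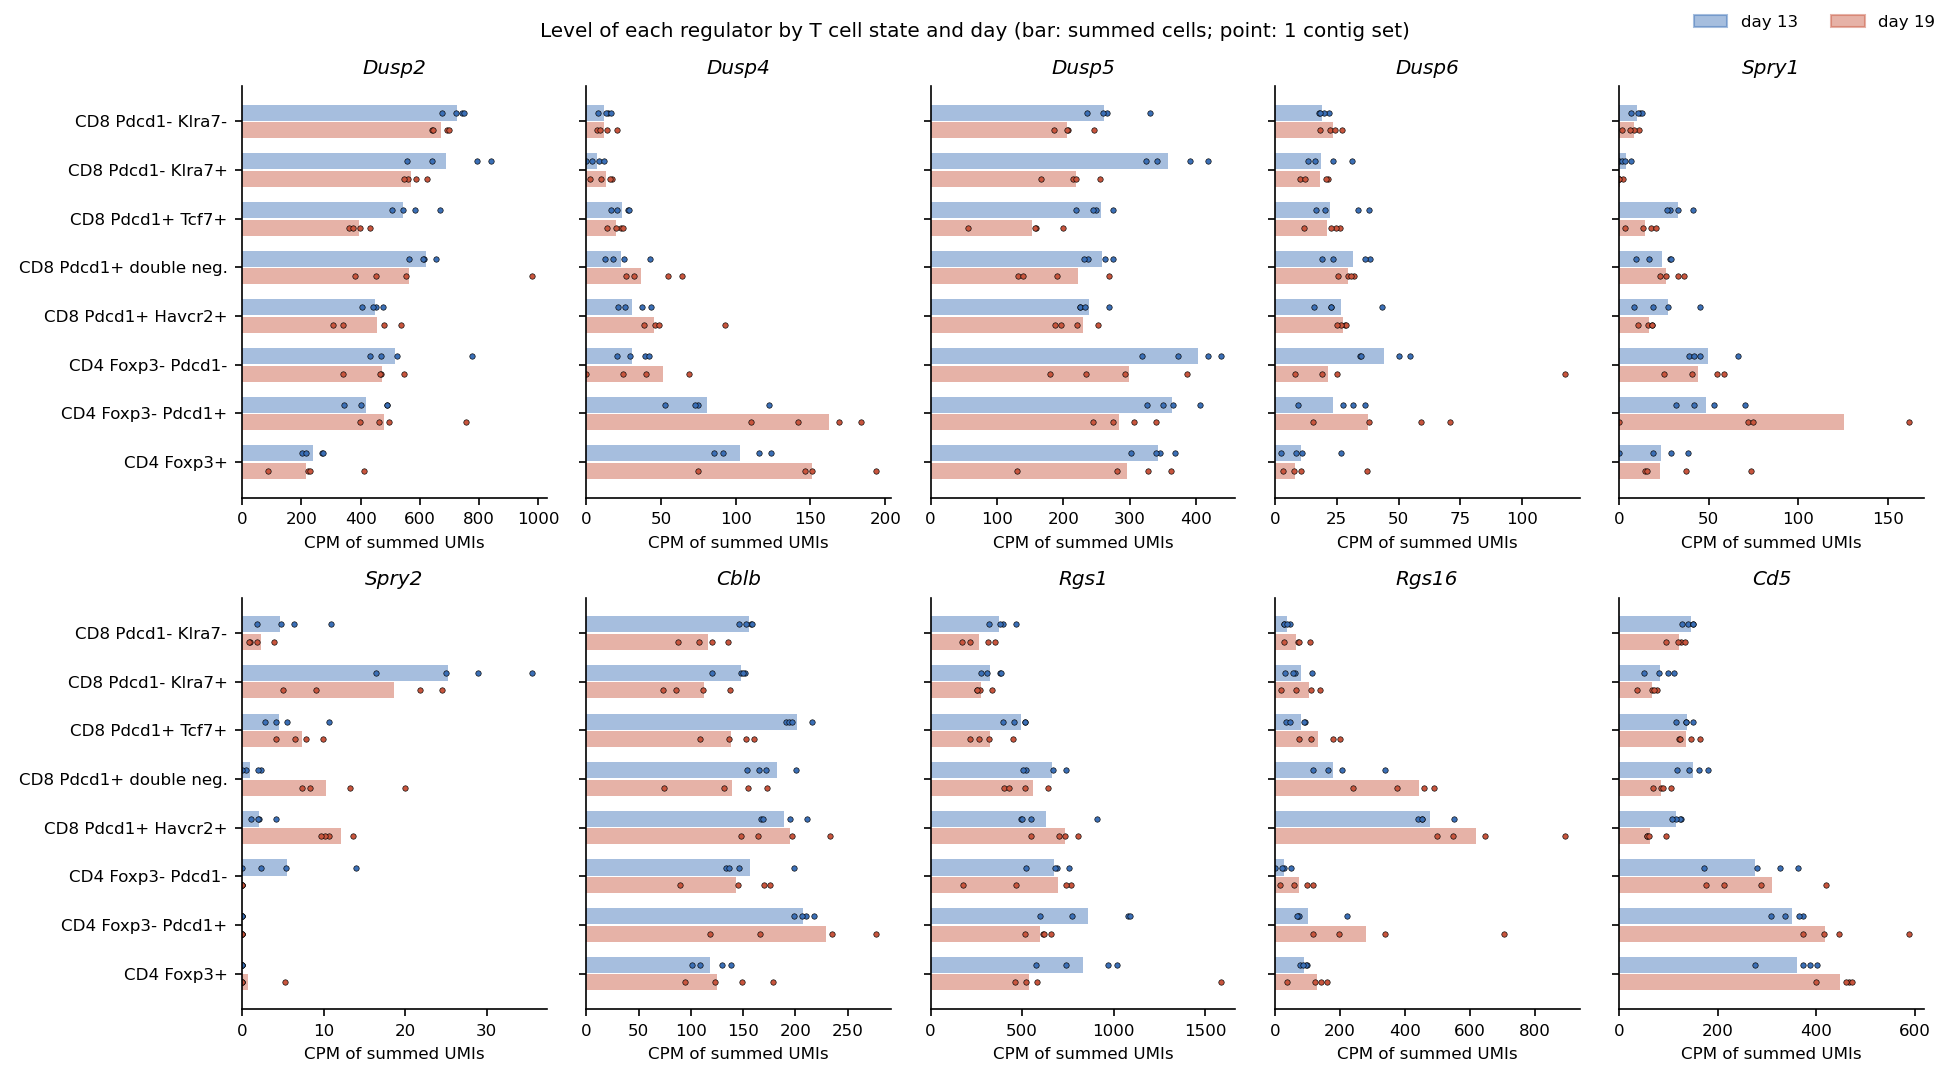
Level of each of the 10 regulators, in CPM of summed UMIs (x axis of each panel), in 8 T cell states (y axis) at day 13 and day 19. Bars are all cells of a state and day together and points are the contig sets of that day, which are not replicates; Tcf7+ stands for progenitor-like, Havcr2+ for terminal-like and double neg. for cells with neither. Rgs16 is highest in the Pdcd1+ Havcr2+ bars and Spry2 in the Pdcd1- Klra7+ bars.

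Sizes past 1.5-fold were counted against all genes reaching 100 UMIs over the compared groups. The regulators were counted without that minimum. Spry2 fell under it but is counted lower for Foxp3 (1 against 8 UMIs). The same holds between the days in Foxp3- CD4 T cells (8 UMIs to 0). It is also counted by day for terminal-like cells, lower at day 13 (7 against 19) and higher at day 19 (58 against 14). Between Pdcd1+ and Pdcd1- CD8 T cells, 4 regulators were higher and 0 lower by that size, beside 14.8% of 10052 genes higher and 6.52% lower. Between terminal-like and progenitor-like cells the counts were 3 higher and 1 lower (8.9% and 10.4% of 8391 genes), and between Klra7+ and Klra7- cells 2 higher and 2 lower (5.38% and 3.76% of 8686). Between CD8 and Foxp3- CD4 T cells, 2 were higher and 3 lower (8.94% and 12.4% of 10292), and between Foxp3+ and Foxp3- CD4 T cells 0 were higher and 5 lower (7.81% and 5.05% of 7289). Between CD8 cells of clones of at least 3 cells and CD8 cells seen alone, 5 were higher and 0 lower (10.7% and 7.67% of 9463). The corresponding counts in Foxp3- CD4 T cells were 3 and 0 (6.18% and 8.73% of 4354). Between the days, CD8 T cells had 2 higher and 0 lower at day 19 (5.26% and 7.33% of 10052), Foxp3- CD4 T cells 3 higher and 1 lower (5.41% and 7.61% of 5915), and Foxp3+ CD4 T cells 0 higher and 1 lower (7.01% and 9.54% of 4350). The median log2 ratio of the 10 genes was 0.40 for Pdcd1 (0.12 over all genes tested) and 0.49 for CD8 clone size (0.09). It was 0.20 for terminal-like against progenitor-like (0.02), -0.15 for Klra7 (0.04), -0.49 for CD8 against Foxp3- CD4 (-0.09) and -0.47 for Foxp3 (0.03). By day, the terminal-like median was -0.10 at day 13 (0.09 over all genes), with 1 regulator higher and 1 lower by 1.5-fold (13.1% and 10.9% of genes). At day 19 it was 0.54 (-0.05), with 5 higher and 1 lower (9.1% and 9.84%). The Klra7 median was -0.08 and 0.01. For day 19 against day 13 the median was -0.12 in CD8 T cells (-0.04), 0.09 in Foxp3- (0.02) and -0.03 in Foxp3+ CD4 T cells (0.03). Over the alternative settings the Foxp3+ median ran from -0.49 to 0.28, and the count past 1.5-fold from 0 to 4. For clone size in Foxp3- CD4 T cells the median was 0.20 (-0.01).

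Among the MAP kinase phosphatases, Dusp2 was lowest in Foxp3+ CD4 T cells. Its summed level was 689 CPM in Pdcd1- CD8, 512 in Pdcd1+ CD8, 471 in Foxp3- CD4 and 228 in Foxp3+ CD4 T cells. In Foxp3+ cells the sets of day 13 stood at 271, 273, 201 and 217 CPM and those of day 19 at 410, 224, 89.2 and 230. In Foxp3- CD4 T cells they stood at 590, 512, 385 and 434, and at 672, 510, 377 and 463. Every Foxp3+ set was below the Foxp3- set from the same table, while the ranges of the pooled sets overlapped through day-19 set 1, which had 5 Foxp3+ cells. The summed levels were 228 CPM in Foxp3+ and 471 CPM in Foxp3- cells, a log2 ratio of -1.05 (95% interval -1.17 to -0.92, 8 of 8 sets lower). In the whole table, 4.1% of genes were lower in 8 of 8 sets. The difference held on each day, at -0.96 and -1.15. In shares of thinned cells, 47.3% and 44.8% of Foxp3+ cells had a Dusp2 UMI, against 64.2% and 69.4% of Foxp3- CD4 and 81.4% and 77.1% of CD8 T cells. Macrophage-rich barcodes outside the contig tables, which serve as background, had a share of 33.6% and 31.2%.

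Within CD8 T cells Dusp2 was lower where Pdcd1 was present, but by less than 1.5-fold. Pdcd1+ cells had 542, 565, 523 and 525 CPM in the sets of day 13 and 585, 529, 345 and 379 in those of day 19, and Pdcd1- cells had 752, 765, 700 and 643, and 673, 654, 624 and 617. The 2 groups did not overlap in these 16 values, and the ratio was -0.43 (-0.47 to -0.39, 8 of 8 sets lower, beside 7.39% of all genes). Ordered over 18 states and days, Dusp2 ran from 725 CPM in Pdcd1- Klra7- cells of day 13 to 215 CPM in Foxp3+ cells of day 19. Neighbours in that order overlapped in their sets throughout, except at the step from progenitor-like cells of day 19 (396 CPM) to Foxp3+ cells of day 13 (241 CPM).

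Dusp4 ran the other way. It stood at 21.8 CPM in CD8 and 87.4 CPM in Foxp3- CD4 T cells, a log2 ratio of -2.01 (-2.17 to -1.84). All 8 sets were lower in CD8, as were 8.45% of all genes. Foxp3+ cells had 126 CPM, 1.44-fold above Foxp3- cells over both days together and higher in 6 of 8 sets, while 4.25% of all genes were higher in 8 of 8. At day 13 the levels were 103 and 55.3 CPM (1.87-fold, a log2 ratio of 0.90, 0.58 to 1.22), and at day 19 they were 151 and 128 CPM (0.24, -0.02 to 0.49). Of the 3 classes, Foxp3+ cells had the largest thinned share with a Dusp4 UMI, 35.3% and 44.0%, compared with 6.5% and 9.82% of CD8 T cells and 2.07% and 1.46% of macrophage-rich barcodes. Within CD8 T cells, Pdcd1+ sets stood at 34.2, 23.8, 23.7 and 27.8 CPM at day 13 and at 51.9, 33.9, 40.0 and 35.4 at day 19. The Pdcd1- sets stood at 12.1, 11.5, 7.91 and 15.2, and at 17.7, 14.9, 5.73 and 11.1. No Pdcd1+ set was as low as the highest Pdcd1- set, and the ratio was 1.43 (1.2 to 1.66). Higher levels in 8 of 8 sets were seen for 18.9% of all genes in this contrast. Terminal-like cells had 38.9 and progenitor-like cells 22.5 CPM (0.79, 0.50 to 1.09), a difference of 0.36 at day 13 and 1.17 at day 19.

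Dusp5 was below its Foxp3- CD4 level (341 CPM) in CD8 T cells (245 CPM), with a log2 ratio of -0.48 in 8 of 8 sets. It was lower at day 19 in both classes, at 210 against 268 CPM in CD8 (-0.35, -0.41 to -0.29) and at 288 against 383 CPM in Foxp3- CD4 T cells (-0.41, -0.55 to -0.27). Day-13 and day-19 sets were apart in each class. In CD8 T cells, sets wholly below those of day 13 were seen for 14.3% of all genes, and in Foxp3- CD4 T cells for 4.73%. Dusp6, the cytoplasmic ERK phosphatase, was low in Foxp3+ cells, with 29 UMIs (9.48 CPM) against 173 UMIs (33.4 CPM) in Foxp3- cells. That ratio was -1.82 (-2.44 to -1.24), lower in 8 of 8 sets. In macrophage-rich barcodes Dusp6 stood at 169 and 102 CPM, above every T cell state, and the thinned share with a UMI was 43.9% and 33.7% there. In CD8 T cells it was 10.3% and 12.9%, so no share of T cells with Dusp6 is read here.

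Of the Sprouty genes, Spry1 was higher in Foxp3- CD4 and Spry2 in CD8 T cells. Spry1 stood at 16.9 CPM in CD8 and 71.8 CPM in Foxp3- CD4 T cells (-2.09, -2.27 to -1.90, 8 of 8 sets lower). Spry2 stood at 7.16 CPM (288 UMIs) against 1.54 CPM (8 UMIs), a log2 ratio of 2.21 (1.22 to 3.44) with 7 of 8 sets higher. In this contrast 6.79% of all genes were higher in 8 of 8 sets. At day 19 no Spry2 UMI was seen in 252 Foxp3- CD4 T cells, so that level was at least 6.90-fold higher in CD8, taking 3 counts over the group as the floor. Foxp3+ cells had 71 Spry1 UMIs (23.2 CPM), a ratio to Foxp3- cells of -1.63 (-2.02 to -1.26, lower in 6 of 8 sets). Without day-19 set 2 that ratio was -0.90.

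Among Pdcd1- CD8 T cells Spry2 was higher in Klra7+ than in Klra7- cells. Klra7+ cells had Spry2 at 35.6, 16.5, 29.0 and 25.1 CPM in the sets of day 13 and at 5.05, 24.5, 21.9 and 9.13 in those of day 19. Klra7- cells had 10.9, 1.89, 4.74 and 6.34, and 1.86, 3.95, 1.02 and 0.842. Every Klra7+ set was above its Klra7- counterpart, and on each day the ranges did not overlap. In day-19 set 1 this rested on a single Spry2 UMI in 15 Klra7+ cells. The summed levels were 22.5 CPM (106 UMIs) and 3.89 CPM (54 UMIs), a log2 ratio of 2.53 (2.05 to 3.03), beside 3% of genes higher in 8 of 8 sets. The ratio was 2.43 at day 13 and 3.0 at day 19. The thinned share with a Spry2 UMI was 11.2% (8.09% to 15.0%) and 9.20% (5.35% to 14.5%) in Klra7+ cells, 2.14% and 0.929% in Klra7- cells, and 0.344% and 0% in macrophage-rich barcodes. Without thinning, the Klra7+ shares were 14.7% and 16.1%. Spry1 went the other way, with 12 UMIs in Klra7+ and 131 in Klra7- cells (2.55 against 9.45 CPM, a log2 ratio of -1.89, -2.88 to -1.04). It was lower in 7 of 8 sets, and in day-13 set 3 the levels were 6.82 and 6.81 CPM; without that set the ratio was -3.19. At day 19 a single Spry1 UMI was found in 174 Klra7+ cells. Macrophage-rich barcodes had Spry1 at 12.1 and 15.3 CPM, above both groups, so whether these cells express Spry1 is not read from its UMIs.

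Spry1 was higher in Pdcd1+ than in Pdcd1- CD8 T cells on both days. Pdcd1+ sets stood at 19.2, 33.3, 31.1 and 24.1 CPM at day 13 and at 15.1, 17.5, 22.8 and 21.0 at day 19. Pdcd1- sets stood at 9.72, 10.8, 6.81 and 8.73, and at 1.36, 7.43, 6.45 and 4.31. The groups did not overlap, and the ratio was 1.69 (1.42 to 1.96). Terminal-like cells had 27.2 CPM against 33 CPM in progenitor-like cells at day 13 (-0.28, -0.67 to 0.11) and 16.5 against 14.7 CPM at day 19 (0.17, -0.47 to 0.85). The ratio over both days, -0.38, lies outside both of these, since the days hold different mixes of the states. Between the days, Spry1 in progenitor-like cells differed by -1.17 (-1.81 to -0.57), with no overlap between the days' sets.

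Spry2 had no such constant relation to Pdcd1. At day 13 Pdcd1+ cells had 4.28, 1.63, 2.54 and 3.27 CPM by set, and Pdcd1- cells 15.4, 4.61, 11.0 and 11.5. At day 19 Pdcd1+ cells had 7.57, 11.4, 10.6 and 9 CPM, and Pdcd1- cells 2.72, 10.5, 7.17 and 3.08. Pdcd1+ was thus the lower group in 4 of 4 sets at day 13 (-1.91, -2.53 to -1.32), as for 15.8% of all genes, and the higher group in 4 of 4 sets at day 19 (0.54, 0.03 to 1.07), as for 29.4%. Summed over both days the ratio was -0.54. Terminal-like cells went the same way against progenitor-like cells, lower in 4 of 4 sets at day 13 (-1.18, -2.67 to 0.14, 18% of all genes) and higher in 4 of 4 at day 19 (0.72, -0.14 to 1.68, 14.6%), with intervals that include 0. Between the days, terminal-like cells had 4.13, 2.06, 1.05 and 1.91 CPM by set at day 13 (7 UMIs in all) and 10.7, 13.6, 10.2 and 9.74 at day 19 (58 UMIs), a log2 ratio of 2.58 (1.45 to 3.96). Pdcd1+ cells with neither Tcf7 nor Havcr2 went from 0.991 to 10.3 CPM (3.38, 1.85 to 5.36). Neither state showed overlap between the sets of day 13 and day 19, beside 4.22% of 6404 genes higher in this way in the latter state. In terminal-like cells 3.27% of 6995 genes had every day-19 set above every day-13 set and 3.73% were at least 1.5-fold higher. Among the 10 regulators, Spry2 was the 1 gene of either kind there. These shares are over genes with at least 100 UMIs, which Spry2 did not reach in either state (4 and 25 UMIs in cells with neither marker). Nor did it for terminal-like against progenitor-like cells on either day. Spry1 and Cd5 were at least 1.5-fold lower in terminal-like cells (7.93% of genes), Spry1 at -0.28 without day-13 set 2. The thinned share of terminal-like cells with a Spry2 UMI was 0.450% (0.0114% to 2.48%) at day 13 and 6.03% (3.77% to 9.08%) at day 19. Klra7 was seldom detected in these cells: 1 terminal-like cell a day had a Klra7 UMI, and the 347 without one at day 19 had 12.2 CPM of Spry2. Over all CD8 T cells Spry2 stood at 9.04 against 5.92 CPM (0.61, 0.27 to 0.96) with overlapping sets. That ratio was 0.25 without day-13 set 2, 0.27 without day-19 set 2, 0.27 with a fixed mix of states and 0.05 without cycling cells.

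Cblb, the ubiquitin ligase, ran from 113 CPM in Klra7+ cells of day 19 to 230 CPM in Foxp3- Pdcd1+ CD4 T cells of day 19, leaving aside 12 CD8 T cells of day 19 with both Tcf7 and Havcr2 (292 CPM). By class it stood at 163 CPM in CD8, 191 CPM in Foxp3- CD4 and 122 CPM in Foxp3+ CD4 T cells. The Foxp3 ratio was -0.65 (-0.83 to -0.48, lower in 7 of 8 sets), but it was under 1.5-fold in 6 of the alternatives, which gave -0.42 to -0.56. Pdcd1+ CD8 T cells had 182 CPM and Pdcd1- cells 140 CPM (0.38, 0.31 to 0.45), higher in 8 of 8 sets. In progenitor-like cells Cblb stood at 201 CPM at day 13 and 138 CPM at day 19 (-0.54). There, 4 regulators (Dusp2, Dusp5, Spry1 and Cblb) had all day-19 sets below all day-13 sets, beside 10.4% of 6229 genes.

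Rgs16 was higher in CD8 T cells with Pdcd1, in those with Havcr2, in expanded clones and at day 19. Terminal-like sets stood at 454, 552, 441 and 453 CPM at day 13 and at 894, 648, 549 and 498 at day 19. Progenitor-like sets stood at 35.5, 93.3, 91.0 and 48.0, and at 180, 74.1, 113 and 202. The lowest terminal-like set was above the highest progenitor-like set, and the log2 ratio was 2.52 (2.39 to 2.64), with 2.56 at day 13 and 2.21 at day 19. In this contrast 5.97% of all genes were higher in 8 of 8 sets. The thinned share with an Rgs16 UMI was 62.6% (55.9% to 69.0%) and 77.6% (72.8% to 81.9%) in terminal-like cells, 18.5% and 28.0% in progenitor-like cells, 8.66% and 9.48% in Pdcd1- Klra7- cells, and 1.2% and 0.488% in macrophage-rich barcodes. Unthinned, the terminal-like shares were 73.4% and 91.1%.

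The whole Pdcd1+ group had Rgs16 at 315, 229, 201 and 276 CPM by set at day 13 and at 456, 527, 384 and 402 at day 19. Pdcd1- cells had 30.0, 49.0, 49.7 and 43.2, and 84.3, 92.2, 84.6 and 38.8. These groups were 2.57 apart on the log2 scale (2.47 to 2.66), and 1.90 apart when states were read from thinned counts. Depth, which is higher in Pdcd1+ cells (median 9746 against 6926 UMIs), moves with this contrast. Klra7+ cells had 91.1 and Klra7- cells 45.8 CPM (0.99, higher in 7 of 8 sets), but the ratio was 0.51 as a mean over sets and 0.07 with states from thinned counts.

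**Figure D2:**
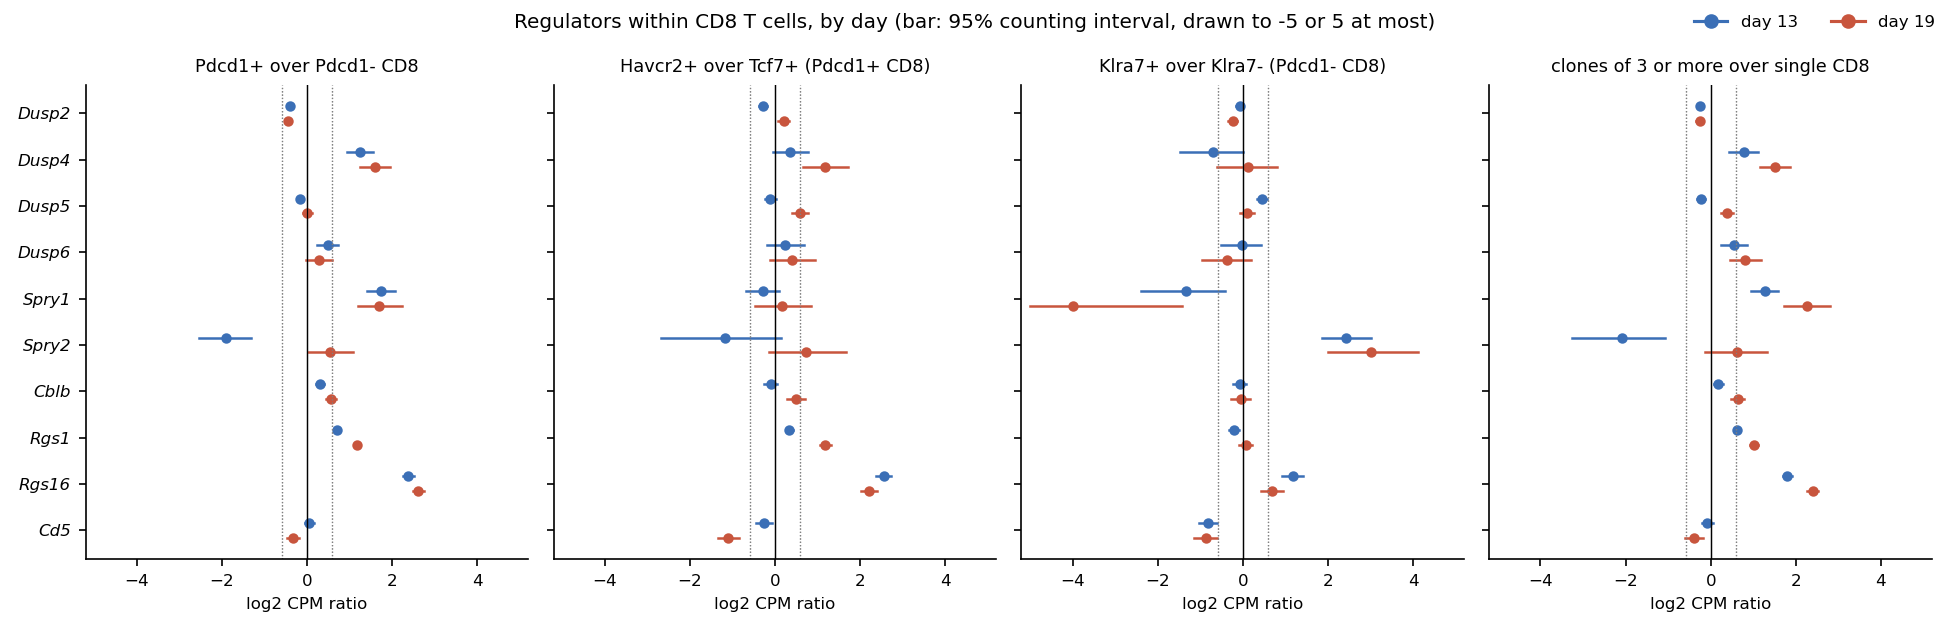
Log2 CPM ratio of each regulator (x axis) in 4 contrasts within CD8 T cells, separately at day 13 and day 19, with 95% counting intervals as bars and 1.5-fold marked by dotted lines. Rgs16, Spry1 and Dusp4 lie to the right of 0 on both days for Pdcd1 and for clone size, while Spry2 lies on opposite sides on the 2 days (-1.91 and 0.54 for Pdcd1) and to the right on both days for Klra7.

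Rgs16 had the largest ratio between the days of the 10 regulators in CD8 T cells, and in Foxp3- CD4 T cells of the 9 with UMIs on both days (Spry2 had 0 at day 19). CD8 sets stood at 182, 149, 116 and 166 CPM at day 13 and at 292, 364, 253 and 223 at day 19, which do not overlap. The totals were 145 and 305 CPM (1.07, 1.01 to 1.14), and 8.22% of all genes had every day-19 set above every day-13 set. The thinned share with an Rgs16 UMI was 19.4% and 38.2% of CD8 T cells (24.1% and 45.5% unthinned). Terminal-like cells made up 8.39% of CD8 T cells at day 13 and 24.2% at day 19. Within states, the day ratio of Rgs16 was 0.38 in terminal-like cells (478 to 620 CPM), 1.32 in Pdcd1+ cells with neither marker (178 to 445 CPM), 0.72 in progenitor-like cells (0.44 without day-19 set 4) and 0.85 in Pdcd1- Klra7- cells. It was 0.38 in Klra7+ cells and 0.07 in those with both Tcf7 and Havcr2. In each of these states the sets of the 2 days overlapped. In Foxp3- CD4 T cells the sets stood at 55.3, 57.4, 45.8 and 114 CPM at day 13 and at 538, 273, 96.1 and 138 at day 19, the first of these from 7 cells. The ranges overlapped. The summed ratio was 1.75 (1.51 to 2.00), and 1.12 without day-19 set 2. Rgs16 was 1.58-fold higher in CD8 than in Foxp3- CD4 T cells (209 against 132 CPM), but under 1.5-fold in 5 of the alternatives, such as 0.32 on the log2 scale as a mean over cells. By day it was 145 against 64.6 CPM at day 13 (2.24-fold) and 305 against 217 CPM at day 19 (1.40-fold), where set 1 had 292 against 538 CPM.

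Rgs1 was also high in macrophage-rich barcodes, where it stood at 1079 and 925 CPM and was detected in 64.4% and 59.5% after thinning, about the share of CD8 T cells (66.0% and 63.2%). Its share is therefore not read, and its levels are given between T cell groups only. Pdcd1+ CD8 sets stood at 465, 686, 547 and 519 CPM at day 13 and at 429, 694, 549 and 501 at day 19, each above its Pdcd1- counterpart at 451, 372, 315 and 381, and at 326, 301, 221 and 225. The log2 ratio was 0.86 (0.82 to 0.91), with 0.71 at day 13 and 1.17 at day 19. Terminal-like cells had 689 and progenitor-like cells 441 CPM (0.64, 0.58 to 0.71, higher in 7 of 8 sets). This was 0.34 at day 13 and 1.18 at day 19, and 0.47 over both days without day-19 set 2. In Foxp3+ cells Rgs1 stood at 833 CPM at day 13 and 536 CPM at day 19 (-0.64, -0.77 to -0.51). That difference fell under 1.5-fold without day-13 set 3 (-0.55), day-13 set 4 (-0.54) or day-19 set 2 (-0.34), and it was -0.07 as a mean over sets. The macrophage list summed to 199 CPM (sets 113 to 248) at day 13 and 171 CPM (94.5 to 221) at day 19 in Foxp3+ cells. The 5 dendritic cell genes were lower at day 19 in these cells, at 1122 against 2665 CPM, and the 4 B and plasma cell genes went from 265 to 0 CPM. With at most 3 UMIs of the dendritic genes, 4 regulators in place of 1 passed 1.5-fold between the days in Foxp3+ cells. Apart from the filters on macrophage and dendritic genes among the settings recomputed, the part of these lists in the Rgs1 values was not tested.

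**Figure D3:**
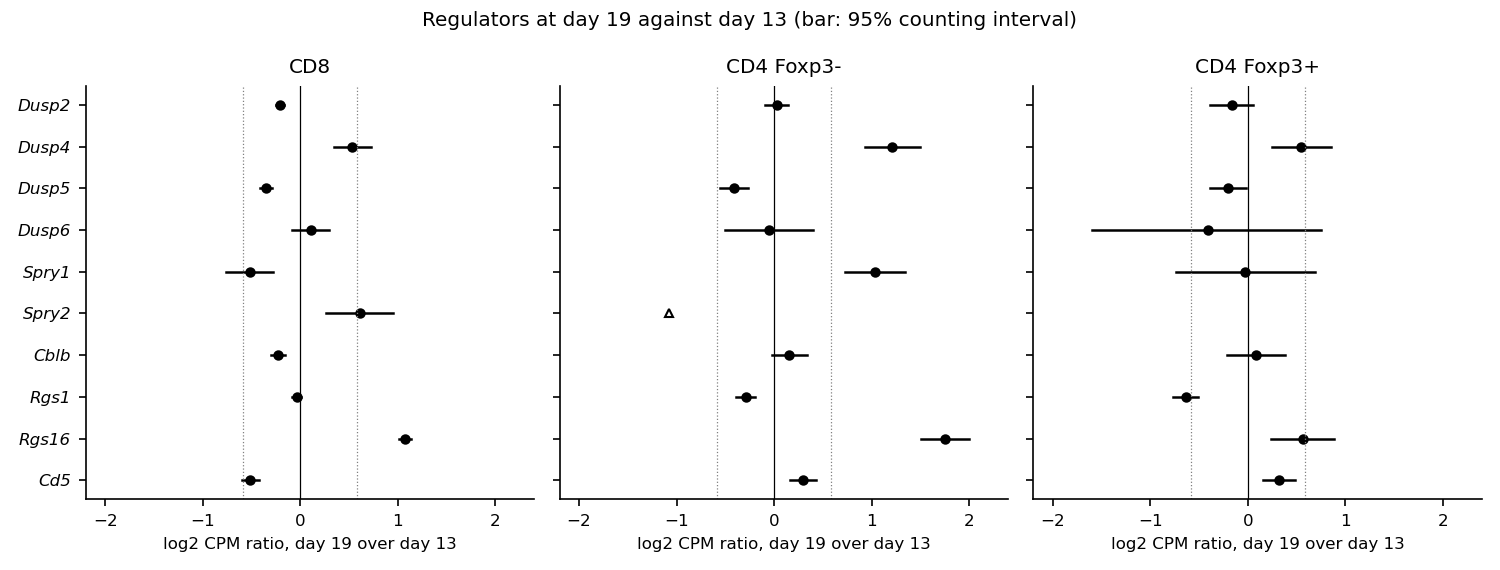
Log2 CPM ratio of each regulator at day 19 over day 13 (x axis) in CD8, Foxp3- CD4 and Foxp3+ CD4 T cells, with 95% counting intervals as bars and 1.5-fold marked by dotted lines. The open triangle is a bound for Spry2, which had 0 UMIs in Foxp3- CD4 T cells at day 19, and ratios of Spry2 in Foxp3+ cells (0 and 1 UMI) are not drawn. Rgs16 is to the right of 0 in the 3 classes (1.07, 1.75 and 0.56).

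In Foxp3- CD4 T cells 3 regulators were higher at day 19 by over 1.5-fold: Rgs16, Dusp4 (128 against 55.3 CPM, 1.21, 0.93 to 1.5) and Spry1 (100 against 49.1 CPM, 1.03, 0.73 to 1.35). Dusp4 sets stood at 92.8, 37.1, 50.0 and 57.6 CPM at day 13 and at 101, 142, 129 and 82.6 at day 19, and overlapped through 1 set of each day. Spry1 rested on 1 set: its values were 59.2, 38.3, 53.1 and 49.2, and 16.8, 133, 53.8 and 63.9, and the ratio without day-19 set 2 was 0.18. Spry2 went from 8 UMIs to 0, a level at least 2.11-fold lower at day 19. Without day-19 set 2 the bound changed sign, to 0.18, because fewer cells raise the floor, and without day-13 set 4 it was -0.41. In the Pdcd1+ cells of this class, Spry1 stood at 48.6 and 126 CPM (1.37, and 0.49 without day-19 set 2), Dusp4 at 80.6 and 162 CPM (1.01), Rgs16 at 101 and 281 CPM (1.47) and Dusp6 at 23.6 and 37.8 CPM (0.68, but 0.26 leaving out day-13 set 3 and 0.52 leaving out day-19 set 4). These 4 of the 10 regulators were at least 1.5-fold higher, Dusp6 from 34 and 60 UMIs. Of the 4307 genes with at least 100 UMIs there, 5.92% were. Genes of other cell types also differed between the days in Foxp3- CD4 T cells. The 10 macrophage genes summed to 135 CPM at day 13 (sets 84.8 to 182) and 236 CPM at day 19 (184 to 296), and 4 of the 5 with enough UMIs were at least 1.5-fold higher (median 1.30, against 0.09 for the regulators). In the Pdcd1+ cells the list summed to 111 and 272 CPM. Dusp6 stood at 169 and 102 CPM in macrophage-rich barcodes, above its level in these T cells. The dendritic cell genes were lower at day 19, at 576 against 1075 CPM. The part of these genes in the values of this class was not tested, apart from the filters on macrophage and dendritic genes among the settings recomputed. Foxp3- Pdcd1+ cells also made up more of the group at day 19, with 166 of 252 cells against 161 of 349.

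Cd5 was higher in CD4 than in CD8 T cells, and within CD8 T cells it was lowest in Klra7+ and in late terminal-like cells. CD8 T cells had 118 CPM, Foxp3- CD4 T cells 344 CPM and Foxp3+ CD4 T cells 404 CPM. The ratio of CD8 to Foxp3- CD4 was -1.55 (-1.63 to -1.47, 8 of 8 sets lower). Thinned shares with a Cd5 UMI were 40.2% and 34.5% in CD8, 62.8% and 78.6% in Foxp3- CD4, 74.0% and 82.4% in Foxp3+ CD4 T cells, and 0.861% and 0.488% in macrophage-rich barcodes. Klra7+ CD8 T cells stood at 111, 100, 81.9 and 50.1 CPM at day 13 and at 35.3, 67.2, 77.8 and 70.8 at day 19, each below its Klra7- counterpart at 141, 150, 150 and 127, and at 94.9, 126, 134 and 120. That ratio was -0.86 (-1.03 to -0.70), beside 2.6% of all genes lower in 8 of 8 sets.

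Between the days Cd5 moved in opposite directions in the 2 classes. CD8 sets stood at 137, 142, 133 and 116 CPM at day 13 and at 94.6, 86.9, 98.9 and 104 at day 19 (-0.51, -0.60 to -0.42). Foxp3- CD4 sets stood at 345, 321, 281 and 324, and at 471, 381, 392 and 370 (0.30, 0.16 to 0.43). The days were apart in each class, as for 14.3% of genes in CD8 (lower) and 4.6% in Foxp3- CD4 T cells (higher). Neither difference reached 1.5-fold. In terminal-like CD8 T cells the sets stood at 126, 123, 115 and 107 CPM at day 13 and at 57.0, 57.1, 60.3 and 94.7 at day 19, a ratio of -0.87 (-1.09 to -0.65), apart as for 7.32% of genes. In Pdcd1+ cells with neither marker Cd5 went from 150 to 84.6 CPM (-0.83, apart as for 7.76%). In progenitor-like cells they stood at 136, 137, 151 and 115, and at 164, 122, 124 and 146. The terminal-like to progenitor-like ratio was -0.26 at day 13, -1.09 at day 19 and -0.69 over both (8 of 8 sets lower, as were 6.3% of all genes). Over both days it was -0.48 without day-19 set 2 and -0.49 with states from thinned counts.

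The surface protein could be set beside the RNA through the CD5 antibody tag. Days were stained separately and are not compared. As a share of all antibody tag UMIs, CD5 stood at 21.1 per 10000 in CD8, 39.0 in Foxp3- CD4 and 53.7 in Foxp3+ CD4 T cells at day 13, and at 22.1, 61.0 and 98.4 at day 19. Foxp3+ cells were the highest group on both days. At day 13 a CD8 T cell had a median of 9 CD5 tag UMIs, and the mean of the isotype control tags had a median of 8.67. At day 19 these were 5 and 4.67. The median CD5 tag of CD8 T cells was therefore close to that of the isotype tags. Macrophage-rich barcodes, with isotype medians of 9 and 4.67, had CD5 medians of 5 and 3 (11.7 and 12.5 per 10000), below CD8 T cells. The tag was higher in CD8 T cells with more Cd5 RNA: cells with 0, 1 and at least 2 Cd5 UMIs had 18.5, 20.3 and 26.3 per 10000 at day 13 and 18, 22.4 and 29.4 at day 19. Foxp3- CD4 T cells had 25.7, 32.7 and 48.3, and 37.3, 41.5 and 74.1. Foxp3+ CD4 T cells had 35, 50 and 58.5 at day 13, and 95.7 (4 cells), 71.8 and 101.5 at day 19, with no such order. By CD8 state, Klra7+ cells (17.7 and 19.5) were below Klra7- cells (22.7 and 27.1) on both days, with sets that did not overlap on either. Terminal-like cells stood at 19.1 and 15.8 and progenitor-like cells at 20.7 and 27.4. The ranges over sets of these last groups overlapped on both days.

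**Figure D4:**
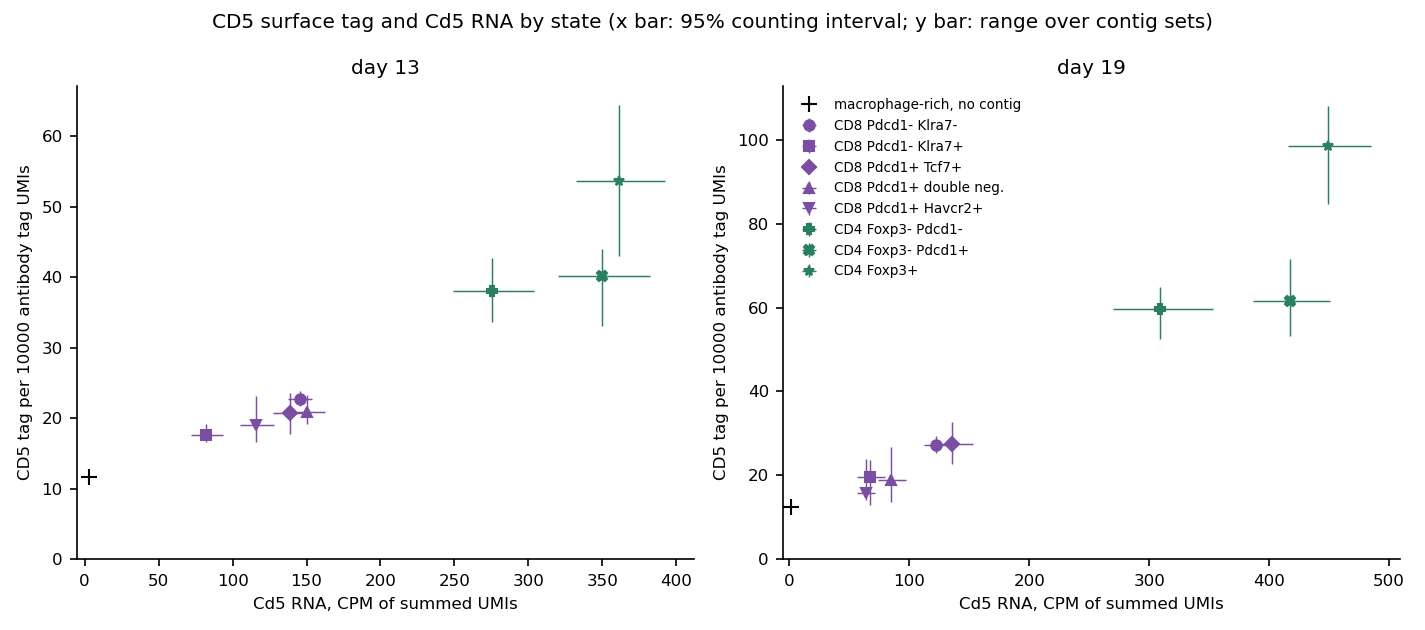
CD5 surface tag per 10000 antibody tag UMIs (y axis) against Cd5 RNA in CPM (x axis) for 8 T cell states and macrophage-rich barcodes, at day 13 and day 19. Horizontal bars are 95% counting intervals and vertical bars the range over contig sets. CD4 states lie above CD8 states on both axes, with Foxp3+ cells highest (53.7 and 98.4 per 10000).

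Clone size was read from cells with exactly 1 TRA and 1 TRB chain, with 696 CD8 T cells in clones of at least 3 cells and 2028 seen alone. Rgs16 stood at 426 CPM in the clones and 99.5 CPM in the cells seen alone (2.10, 2.02 to 2.18), Spry1 at 32.8 and 11.2 CPM (1.54, 1.27 to 1.81) and Dusp4 at 35.7 and 16.4 CPM (1.13, 0.89 to 1.36), each higher in 8 of 8 sets, as were 9.24% of all genes. No regulator was lower in 8 of 8, against 6.32% of genes. Rgs1 was 1.68-fold and Dusp6 1.58-fold higher, each in 7 of 8 sets, and the Dusp6 ratio fell from 0.66 to 0.53 on the log2 scale without day-19 set 2. At day 19 alone 7 of the 10 were at least 1.5-fold higher, beside 11% of 7386 genes, and 0 lower, beside 9.55%. Spry2 was lower in clones at day 13 (1.80 against 7.57 CPM, -2.07, -3.25 to -1.08, in 4 of 4 sets, as were 13.9% of all genes). It stood at 9.58 against 6.27 CPM at day 19 (0.61, -0.12 to 1.33, higher in 4 of 4 sets, as were 18.4% of all genes). On either day Spry2 was under the 100 UMIs asked of those genes, and at day 19 it is 1 of the 7 counted. Rgs16 was already high in clones of 2 cells (325 and 404 CPM) and stood at 294 CPM at day 13 and 725 CPM at day 19 in clones of at least 10 cells.

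**Figure D5:**
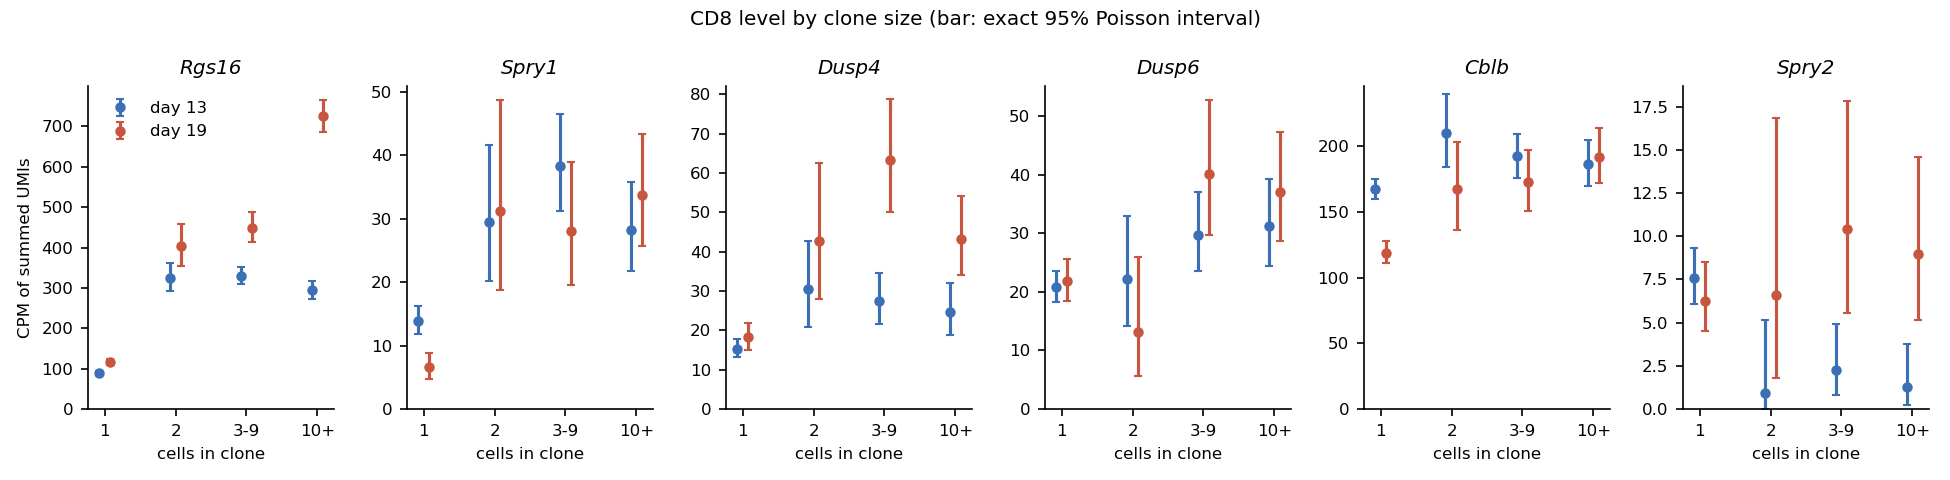
CD8 level of 6 regulators in CPM (y axis) by the number of cells in the clone (x axis) at day 13 and day 19, with exact 95% Poisson intervals. Rgs16 is higher in every clone class than in cells seen alone (89.9 CPM at day 13 and 116 at day 19), and Spry2 is lower in clones than in cells seen alone at day 13 (7.57 CPM).

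State and clone size move together, so clone size was also read within states. Among terminal-like cells, those in clones of at least 3 had Rgs16 at 567 against 425 CPM (0.42, 0.28 to 0.56) and Spry1 at 28.1 against 12.4 CPM (1.18, 0.40 to 2.06). This Spry1 ratio was higher in 4 and lower in 3 of 8 sets, and it was 0.66 at day 13 (-0.22 to 1.65) and 1.95 over both days without day-13 set 2. Dusp4 was nearly level there, at 40.2 and 38.8 CPM (0.05, -0.42 to 0.55), and Cd5 was lower in the clones, at 87.0 and 118 CPM (-0.44). Among progenitor-like cells Spry1 stood at 54.5 against 21.5 CPM (1.34, 0.73 to 1.94, higher in 6 of 8 sets), with 0.72 without day-13 set 3 and 2.24 without day-13 set 2. The interval of Rgs16 included 0 (0.26, -0.09 to 0.60), and the ratio was 0.90 without day-13 set 2. Among Pdcd1- Klra7- cells, 100 cells in clones had Spry1 at 37.0 CPM against 7.45 CPM in 1114 cells seen alone (2.31, higher in 4 and lower in 4 of 8 sets), and Rgs16 at 151 against 31.7 CPM (2.25, higher in 7 of 8 sets, and 3.01 without day-13 set 2). At day 13 that Rgs16 level was 53.5 CPM in the clones, and at day 19 it was 429 CPM, from 26 cells. The summed Spry1 level was over 1.5-fold higher in clones in the 3 states, but the sets did not share that direction in terminal-like or Pdcd1- Klra7- cells.

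The 15 CD8 clones of at least 10 cells differed widely from each other. At day 13 there were 10 (11 to 30 cells), in which Rgs16 ran from 37.9 to 500 CPM (median 111) and Cd5 from 5.04 to 301 CPM (median 145). At day 19 there were 5 (10 to 57 cells), with Rgs16 from 521 to 1070 CPM (median 584) and Cd5 from 45.3 to 102 CPM (median 83.5). The highest Rgs16 level of day 13 (500 CPM) was in a clone 96.7% terminal-like, and the lowest of day 19 was 521 CPM. How many of all genes are apart in this way was not counted. Clones of a day come from 1 capture and are not replicates. The share of a clone in the terminal-like state ran from 0% to 96.7% at day 13 and from 44.4% to 86.8% at day 19. Spry2 had no UMI in 8 of the 10 clones of day 13 and was detected in 5 of 5 at day 19 (5.11 to 12.7 CPM). Dusp2 ran from 368 to 1419 CPM at day 13, the highest being a clone of 12 cells that was 83.3% Pdcd1+.

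In Foxp3- CD4 T cells, 60 cells were in clones of at least 3 and 312 were seen alone. Rgs16 stood at 525 and 75.1 CPM (2.81, higher in 4 of 6 sets), Spry1 at 149 and 57.5 CPM (1.37, 2 of 6) and Dusp4 at 181 and 83.9 CPM (1.11, 2 of 6). The clones came mostly from day 19 (52 of 60 cells). Without day-19 set 2 the Spry1 ratio was -1.04, and it was -0.19 as a mean over sets. The Rgs16 ratio was 2.14 without that set. At day 13 the clones had 1 Dusp4 UMI.

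A list of 47 other negative regulators of TCR signalling was read the same way. Between Pdcd1+ and Pdcd1- CD8 T cells, 9 of the 45 with enough UMIs were at least 1.5-fold higher and 8 lower, with a median log2 ratio of 0.08. The highest were Dusp14, another dual-specificity phosphatase (21.6 against 1.94 CPM, 3.48), and Ubash3b, a phosphatase that acts on ZAP-70 (1.26). The lowest were Socs3, an inhibitor of cytokine signalling (-1.65), and Rgs10 (-0.98). Dusp14, Ubash3b and Socs3 also took the extremes for terminal-like against progenitor-like cells (2.48, 1.21 and -2.59, with 8 of 43 higher and 10 lower, median -0.06) and for CD8 clone size (2.58, 1.13 and -2.14, with 6 of 45 higher and 6 lower, median 0.10). The other gene at the lower end was Rasa3 (-1.58) in the former and Rgs10 (-1.08) in the latter. Between the days, Dusp14 was 1.79 higher at day 19 in CD8 T cells (21.8 against 6.33 CPM) and 2.36 higher in Foxp3- CD4 T cells, and Ubash3b 0.64 and 1.16. The lowest were Rasa3 (-0.88) and Dgka (-0.78) in CD8, with 2 of 45 higher and 4 lower (median -0.13), and Socs3 (-0.74) and Dusp10 (-0.71) in Foxp3- CD4 T cells, with 3 of 41 higher and 3 lower (median -0.08). In Foxp3+ cells 0 of 40 were higher and 3 lower (median -0.02), led by Dusp10 (-0.97) and Socs3 (-0.96), with Sh2d2a and Ptpn7 at the upper end (0.55 each).

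Between Klra7+ and Klra7- CD8 T cells, 1 of 42 list genes was higher and 2 lower (median 0.04): Rgs2 (0.81) at the upper end with Rasa2 (0.52), and Cd6 (-1.12), a CD5 relative, with Sit1 (-0.78) at the lower. Between CD8 and Foxp3- CD4 T cells 1 of 45 was higher and 9 lower (median -0.21), from Ptpn6 (0.65) and Rgs3 (0.51) to Dusp14 (-1.03) and Rgs10 (-1.26). Foxp3+ against Foxp3- cells gave 1 of 41 higher and 4 lower (median 0.02), from Dok1 (0.80) and Cbl (0.53) to Dusp10 (-0.88) and Lax1 (-0.93). In Foxp3- CD4 clones 4 of 40 were higher and 4 lower (median -0.06), from Ubash3b (1.67) and Ptpn6 (0.89) to Socs3 (-0.89) and Dgka (-0.96). A list of 15 early activation genes such as Nr4a1, Egr1, Cd69 and Fos had a negative median for Pdcd1, for terminal-like cells and for clone size, and a positive one for Klra7. It had 2 higher and 7 lower of 15 for Pdcd1 (median -0.54), 1 and 6 of 13 for terminal-like against progenitor-like cells (-0.54), 2 and 7 of 14 for CD8 clone size (-0.69), and 2 and 2 of 14 for Klra7 (0.25). It had 0 and 2 of 14 for Foxp3 (-0.33), 2 and 7 of 15 for CD8 against Foxp3- CD4 (-0.55) and 2 and 5 of 13 for CD4 clone size (-0.42). Between the days it had 0 and 1 of 15 in CD8 (-0.32), 1 and 5 of 14 in Foxp3- CD4 (-0.45) and 0 and 7 of 13 in Foxp3+ CD4 T cells (-0.62). Heat shock genes, a sign of handling, had 0 of 6 higher and 2 lower for Pdcd1 (median -0.27) and 1 of 6 higher and 0 lower between the days in CD8 T cells (0.05). They had 0 higher and 3 lower for Foxp3 (-0.40), between the days in Foxp3+ cells (-0.50) and for CD4 clone size (-0.45). For terminal-like cells (-0.20) and for CD8 against Foxp3- CD4 (-0.17) they had 0 higher and 2 lower, and none passed 1.5-fold for Klra7 (0.12), CD8 clone size (-0.17) or between the days in Foxp3- CD4 T cells (-0.19). The part of handling and of activation in the regulators' values was not tested.

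Profiles were compared over 18 states and days and 5276 genes, as log2(CPM + 1) and with no test, since these profiles share captures and depth. The gene most like Rgs16 was Chst12 (Pearson r = 0.957), ahead of Atp5d (0.931) and Ppib (0.925). Dusp4 was closest to Prdx2 (0.949), Sdf4 (0.948) and Ccr8 (0.943), and Cd5 to Sat1 (0.951), Snx20 (0.940) and Rora (0.936). Dusp2 was closest to Apol7e (0.921), Pde3b (0.900) and St3gal6 (0.898), and Dusp5 to Skil (0.925), Jund (0.843) and Szrd1 (0.840). Spry1 was closest to Bcl2a1d (0.915) and Bcl2a1b (0.911), near-identical copies whose counts are uncertain, and to Gypc (0.910). The closest gene reached 0.930 for Rgs1 (Pqlc3), 0.877 for Cblb (Ostf1), 0.812 for Spry2 (Suclg2) and 0.797 for Dusp6 (Tgfbr2). Among the regulators, Dusp4 and Cd5 were the most alike (0.758) and Dusp2 and Dusp4 the most opposed (-0.762), followed by Spry2 and Cd5 (-0.750). Spry1 and Spry2 were opposed too (-0.677), and Spry1 was alike to Rgs1 (0.720).

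Genes of other cell types were measured in the same sums. The 5 dendritic cell genes summed to 247 CPM in CD8 T cells at day 13 (sets 158 to 354) and 102 at day 19 (73.2 to 165). In Foxp3- CD4 T cells they summed to 1075 (399 to 1452) and 576 (118 to 615), and in Foxp3+ CD4 T cells to 2665 (2222 to 2992) and 1122 (435 to 4659). They therefore move with class, with Foxp3 and with day, and 5 of 5 were detected in each of these sums. The 10 macrophage genes summed to 70.7 and 86.6 CPM in CD8 T cells, with Adgre1 at 0 in Foxp3- CD4 T cells at day 13. The 4 B and plasma cell genes summed to 265 CPM in Foxp3+ cells at day 13 (sets 0 to 893) and 0 at day 19, and to 2.52 and 3.81 in CD8 T cells. NK cell genes summed to 12.2 and 34.6 CPM, and microglial genes to 12.8 and 13.5 CPM, in CD8 T cells. Cycling genes summed to 581 and 896 CPM in CD8 T cells, and to 1236 and 1061 in terminal-like cells. The part of these genes in the values above was not tested, apart from the filters named with their results.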

How the data were processed

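The deposited matrices hold unfiltered UMI counts per barcode for 32285 genes, 138 antibody tags and 4 multiplexing tags, per the file headers. They list 736611 barcodes and 144565182 gene UMIs at day 13 and 735849 and 81224453 at day 19. The submitters' processing notes name bcl2fastq 2.20, Cell Ranger 4.0.0, STAR 2.7.5c, Seurat, R 4.1.2 and the build mm10. The deposited contig tables list TCR contigs with UMI counts, per the file headers.

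Counts were summed over the cells of a class, state or clone size and divided by all gene UMIs of the sum. Cells of higher depth thus weigh more in a sum. Ratios carry exact 95% Poisson intervals. Where a group had 0 UMIs of a gene, 3 counts stood in as the floor, and ratios were compared with 1.5-fold. All genes reaching 100 UMIs over the compared groups were processed alike. Shares were taken after thinning each cell to 5000 UMIs, with exact binomial (Clopper-Pearson) intervals. Intervals cover counting error only. No doublet caller was run. The result of 1 marker list is not reported here. Barcodes with both coreceptors and those with over 3 macrophage UMIs were left out, and other doublets remain. Macrophage-rich barcodes were those outside the contig tables with at least 10 UMIs of the macrophage genes. Sets of a group under 20 cells are included and named where they decide a value. The interval was tested on simulated data.

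Genes named were the 10 regulators in every comparison. From the list of 47 other regulators, those named in each comparison were the 2 highest and 2 lowest with at least 100 UMIs. For likeness, they were the 3 genes of highest r with at least 1000 UMIs, of which fewer are printed for some regulators. The regulators, the lists and the states were chosen with earlier results of these data known. Python 3.11.15, numpy 2.4.6, scipy 1.17.1, pandas 2.3.3 and matplotlib 3.10.9 were used.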

Additional observations from a re-analysis of the deposited data

Results flagged for a closer look

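Among 58 groups of 4 sets examined for a set far from the others, 3 were found, about the 1 in 20 that chance gives. All 3 lay in Foxp3+ CD4 T cells of day 19. Spry2 stood at 5.25 CPM in set 3, from 1 UMI in 19 cells, with 0 in the other sets, where any single UMI gives such a gap. Rgs1 stood at 1584 CPM in set 1, from 85 UMIs in 5 cells, with 583 CPM in the next set. Cd5 stood at 400.4 CPM in set 4, from 127 UMIs in 27 cells, with 460 CPM in the next.

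Spry2 ratios had opposite signs on the 2 days in 3 contrasts within CD8 T cells, in all 4 sets of each day. For Pdcd1+ against Pdcd1- cells the log2 ratio was 0.54 at day 19 and -1.91 at day 13. For terminal-like against progenitor-like cells it was 0.72 and -1.18. For clones of at least 3 cells against cells seen alone it was 0.61 and -2.07. The difference between the days was not tested, and these contrasts share cells.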

How the results depend on the processing

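Of 1968 ratios of single regulators, recomputed over 21 settings and 10 comparisons, 1631 stayed within the counting interval of the main ratio. A further 334 fell outside it and 3 were counted as sign changes. The spread over sets was used for the medians only, so these counts do not compare single ratios with the variation between sets. Of 37 ratios past 1.5-fold, 13 fell under it in at least 1 setting, and of 61 under it, 24 passed it in at least 1. The 3 sign changes counted included Spry2 between days in Foxp3- CD4 T cells without day-19 set 2 (0.18). The others were Spry1 by clone size in those cells, without day-19 set 2 (-1.04) and as a mean over sets (-0.19). Ratios close to 0 may have crossed it without being among these 3, since the Foxp3+ median between days went from -0.03 to 0.26 at 8000 UMIs. The number of regulators past 1.5-fold between days in CD8 T cells (2) was 4 at a minimum of 2000 or 8000 UMIs, and 1 without the macrophage filter, as a mean over sets or with a fixed state mix. In Foxp3- CD4 T cells (4) it was 2 at 2000 UMIs. In Foxp3+ cells (1) it was 3 at 8000 UMIs or with 2 coreceptor UMIs, 2 with states from thinned counts or a main multiplexing tag of at least 80%, 4 without cycling cells, 0 as a mean over cells, and 4 with at most 3 UMIs of the dendritic genes, a filter chosen after seeing the data, as was leaving out sets within states. The median ratio there (-0.03) was 0.26 at 8000 UMIs, 0.27 as a mean over sets, 0.28 without cycling cells and -0.49 with the dendritic filter. Without cycling cells, Foxp3 gave a median of -0.19 and a count of 3 in place of 5. CD4 clone size gave 5 in place of 3 at 8000 UMIs. Leaving out each set in turn gave medians of -0.30 to -0.04 and counts of 1 to 3 between days in CD8, 0.07 to 0.14 and 2 to 4 in Foxp3- CD4, and -0.18 to 0.17 and 1 to 3 in Foxp3+ cells. It gave -0.55 to -0.47 and 5 to 6 for CD8 against CD4, -0.56 to -0.36 and 5 to 6 for Foxp3, 0.36 to 0.44 and 4 to 5 for Pdcd1, and 0.02 to 0.25 and 2 to 5 for terminal-like cells. For Klra7 it gave -0.15 to -0.09 and 4 throughout, and for clone size 0.42 to 0.53 and 5 to 6 in CD8 and 0.13 to 0.44 and 3 to 4 in CD4. Where no value above shows it, the cause was not tested. Low counts limit ratios of Spry2, which had 8 UMIs in Foxp3- CD4 T cells.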
